A study of Homo sapiens with 6 samples.

Results

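Kinesins are motor proteins that walk on, or take apart, microtubules, and 41 of the 33890 genes measured here were read as this family. They are the protein-coding genes whose GENCODE 29 symbol starts with KIF, which takes in motors and the 2 associated proteins KIFAP3 and KIF1BP. CENPE, a kinesin motor of mitosis under another name, is not among the 41 and was counted with the partners of the mitotic motors. By their textbook roles they were sorted into 13 mitotic motors, 17 cargo-transport motors, the 2 associated proteins and 9 ciliary, signalling and other kinesins. KIF2B, KIF19 and KIF25 are not among the genes listed in the table and were not analysed here. The RNA came from LN229, an established human glioblastoma line, kept in 800 µM ursodeoxycholic acid (UDCA, a hydrophilic bile acid) for 48 h or left without it. There were 3 UDCA libraries and 3 control libraries. The labels do not state that libraries were made from different dishes of cells, and the p-values therefore reflect the spread among these libraries alone, which may be technical. LN229 is a single line, so the groups speak for that line. Levels are FPKM, read counts divided by exon length and by the total of the library, so that levels can be set side by side between genes and between libraries. The reads behind them came to between 15988951 and 17743022 per library. Mitochondrially encoded genes took 0.0263% to 0.0271% of reads in the UDCA libraries and 3.13% to 3.16% in the control libraries. FPKM are relative to the library total, and the part of that difference in small changes elsewhere was not tested beyond the rescaling given with those genes. Of the glial markers looked at, 5 of 6 tested were lower with UDCA, as were 35.7% of all genes tested. SOX2 was at 2.58 ± 0.0887 FPKM with UDCA and 77.0 ± 1.49 FPKM in control, and S100B at 12.5 ± 0.0593 FPKM with UDCA and 286 ± 10.1 FPKM in control. VIM was at 65.1 ± 0.801 FPKM with UDCA and 167 ± 1.83 FPKM in control, and NES at 26.9 ± 0.280 FPKM with UDCA and 148 ± 4.39 FPKM in control. GFAP was at 0.505 FPKM with UDCA and 0.612 FPKM in control, and the leukocyte, endothelial and epithelial markers listed in the table were below 1 FPKM on average in both groups.

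A kinesin motor domain uses ATP to step along a microtubule, and the rest of the protein sets what it carries or crosslinks. In a dividing cell one set of kinesins builds the spindle, moves chromosomes and completes cytokinesis, and the genes of this set are known to be transcribed mainly in G2 and mitosis. In cells at any stage another set carries organelles, vesicles and protein complexes, most of it outward towards microtubule plus ends, with kinesin-1 as the main general-purpose carrier.

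The mitotic motors fell to small remnants of their control levels, while the cargo-transport motors were divided between higher and lower with far smaller changes. Genes were tested when 3 or more of the 6 libraries held 1 FPKM or more, and 32 kinesin genes did. With UDCA 22 of them were lower, 8 higher and 2 not called (limma on log2(FPKM + 1), adjusted p under 0.05 over 14380 genes). Among all genes tested the shares called were 35.7% lower and 45.1% higher, 80.8% in either direction, so a call alone does not set a gene apart here. By size, 12 of 12 tested mitotic motors were called and lower by at least 1 on the log2 scale, which 12.0% of all genes tested were. Of the 14 tested cargo-transport motors, 6 were lower and 6 higher, none was lower by that much, and 2, KIF5A and KIFC2, were higher by that much, against 12.3% of all genes. The median log2 change was -4.39 for the mitotic motors and -0.024 for the cargo-transport motors, beside 0.095 for all genes tested. KIF2A, which also acts at spindle poles but was not counted among the mitotic motors, had a log2 change of -0.12. Of the 12 tested mitotic motors 11 reached 1 FPKM in the control libraries alone, as 6.54% of all genes tested did. Such a gene had to differ, so these counts and medians describe the members that passed and support nothing more. The same limit holds for the adjusted p-values given below for members of those 11. Fewer dividing cells and less RNA of these genes per cell cannot be told apart in bulk RNA.

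**Figure D1:**
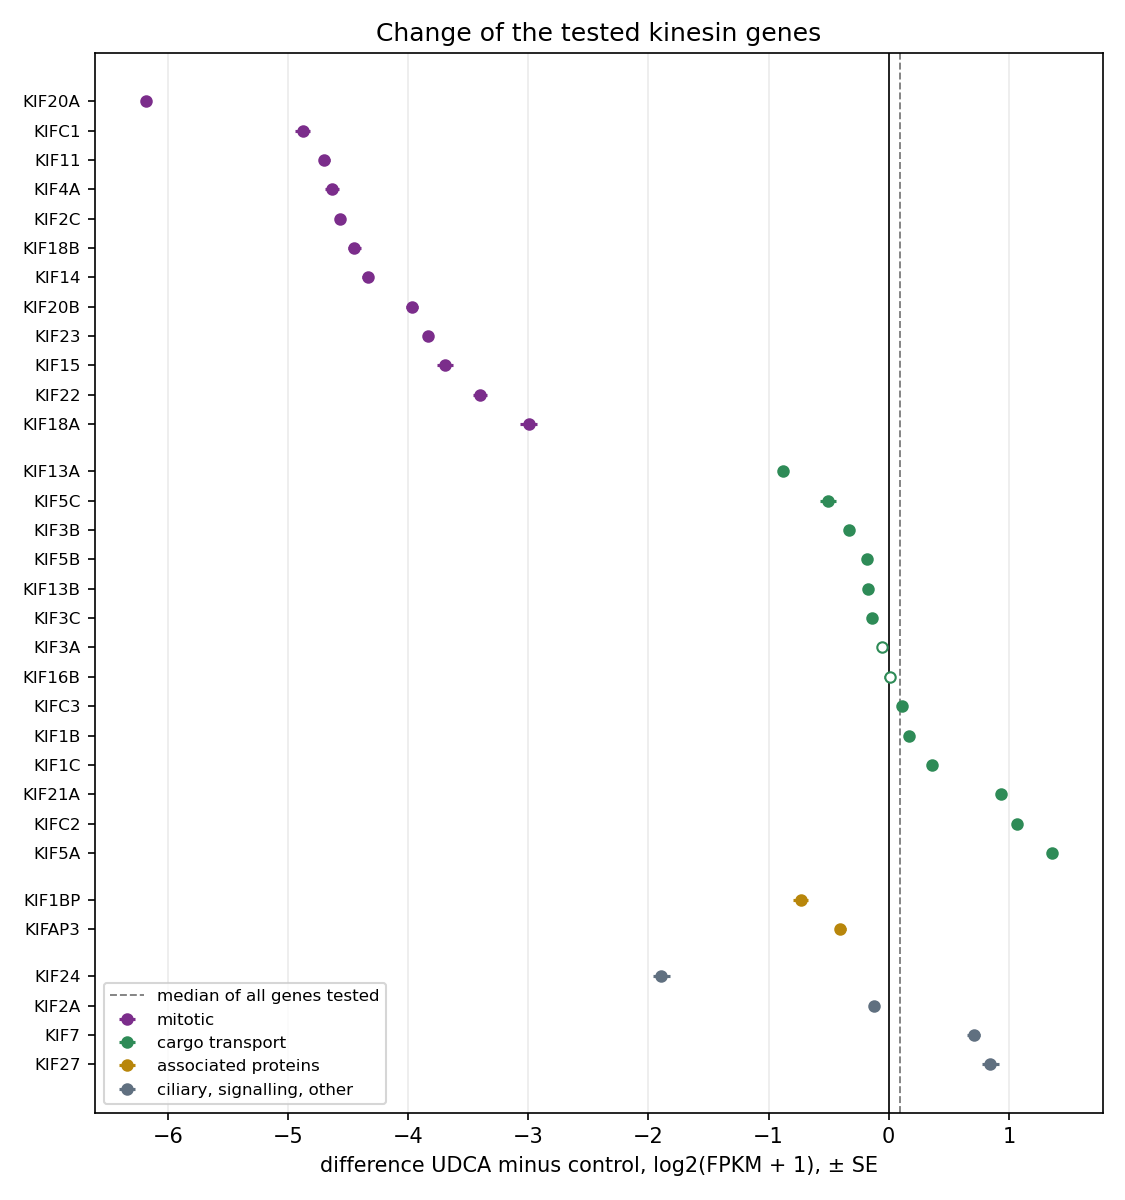
Difference between UDCA and control libraries (UDCA minus control, log2(FPKM + 1) scale, ± SE) for the 32 tested kinesin genes, coloured by role; open points did not pass the test and the dashed line is the median of all genes tested, 0.095. The 12 mitotic motors lie between -6.18 and -2.998, and the 14 cargo-transport motors between -0.88 and 1.36.

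The motors of cytokinesis and the central spindle fell, KIF20A by the most of the tested kinesins on the log2(FPKM + 1) scale. KIF20A (chromosome 5, 138178719 to 138187715, GRCh38), which brings the chromosomal passenger complex to the central spindle, had 0.126, 0.163 and 0.223 FPKM in the UDCA libraries, against 84.1, 83.4 and 84.8 FPKM in the control libraries. It was the most abundant kinesin in the control libraries and stood 34th of the 41 genes with UDCA, a 492-fold fall on 34 reads in all UDCA libraries and 17170 in all control libraries (log2 change -6.18 ± 0.0397 SE, adjusted p = 2.66e-10). KIF14 (chromosome 1, 200551497 to 200620734), which works with citron kinase at the midbody, had 0.00859, 0.0726 and 0.0324 FPKM in the UDCA libraries, against 19.7, 20.4 and 19.8 FPKM in the control libraries. By the ratio of means KIF14 fell 527-fold, on only 14 reads in all UDCA libraries, and 974-fold without UDCA replicate 2, so the ratio is loosely fixed although the groups lie far apart (log2 change -4.34). KIF23, the motor subunit of centralspindlin, the complex that bundles the central spindle, had 0.418, 0.357 and 0.367 FPKM in the UDCA libraries, against 18.3, 18.8 and 19.0 FPKM in the control libraries, a fall of 49.2-fold (means 0.381 ± 0.0330 FPKM with UDCA and 18.7 ± 0.354 FPKM in control, SD, n = 3 each). For KIF20B, a relative of KIF20A in abscission, the values were 0.210, 0.257 and 0.310 FPKM in the UDCA libraries, against 18.4, 18.6 and 19.0 FPKM in the control libraries, a fall of 72.1-fold. In these 4 genes the highest UDCA library stayed far below the lowest control library, while 82.8% of all genes tested had groups that did not overlap.

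Spindle-building motors fell as well. KIF11, the kinesin-5 also called Eg5 that slides the spindle poles apart and is a drug target in its own right, had 0.438, 0.362 and 0.497 FPKM in the UDCA libraries, against 36.8, 35.5 and 36.1 FPKM in the control libraries, a fall of 83.6-fold (log2 change -4.70 ± 0.0465 SE, adjusted p = 1.14e-09). KIF15, which can take over from KIF11 in a formed spindle, had 0.0355, 0.0333 and 0.167 FPKM in the UDCA libraries, against 12.8, 12.9 and 13.2 FPKM in the control libraries. UDCA replicate 3 was the highest of the treated libraries for KIF15 and still far below the control libraries, and the fall of the means was 165-fold, or 376-fold without that library. KIFC1, also called HSET, a minus-end motor that focuses spindle poles, had 0.355, 0.210 and 0.159 FPKM in the UDCA libraries, against 35.8, 34.6 and 35.9 FPKM in the control libraries, and fell 147-fold. Of the KIFC1 exon bases 12.7% lie opposite a ribosomal protein pseudogene, RPL12P1, which was itself listed at 0 in the UDCA libraries.

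Motors that act on chromosomes and on microtubule ends fell over a wide range of factors. KIF4A, a chromokinesin on chromosome X, had 0, 0.142 and 0.104 FPKM in the UDCA libraries, against 26.0, 26.0 and 25.6 FPKM in the control libraries, a fall of 315-fold, and UDCA replicate 1 held no read of it. Without UDCA replicate 2 the KIF4A ratio was 498-fold. KIF22, the other chromokinesin, also called Kid, kept the largest share of its control level among the tested mitotic motors, 5.54%. It had 1.29, 1.41 and 1.13 FPKM in the UDCA libraries, against 24.2, 22.6 and 22.7 FPKM in the control libraries, and was the single mitotic motor above 1 FPKM with UDCA (log2 change -3.40 ± 0.0570 SE, adjusted p = 1.01e-08). Of its exon bases 13.01% lie over AC009133.4, a gene not analysed here. KIF2C, or MCAK, which removes tubulin from microtubule ends at kinetochores, had 0.532, 0.595 and 0.630 FPKM in the UDCA libraries, against 37.2, 35.6 and 36.9 FPKM in the control libraries, a fall of 62.4-fold. The kinesin-8 pair KIF18A and KIF18B, which dampen the movements of chromosomes and the length of astral microtubules, make up the rest of the 12 tested. KIF18A had 0.134, 0.327 and 0.240 FPKM in the UDCA libraries, against 8.54, 8.77 and 9.21 FPKM in the control libraries, a fall of 37.8-fold. For KIF18B the values were 0.376, 0.504 and 0.342 FPKM in the UDCA libraries, against 29.7, 30.7 and 28.7 FPKM in the control libraries, a fall of 72.9-fold. KIF18A was the weakest expressed of the tested mitotic motors in control and, by the log2(FPKM + 1) scale, the one with the smallest difference, a scale that understates changes of low genes. In each of the 12 tested mitotic motors the groups did not overlap, as held for 82.8% of all genes tested.

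KIF4B, an intronless copy of KIF4A, did not reach the minimum level. It had no read in the UDCA libraries and 21 reads in all control libraries, which makes it at least 6.79-fold lower when the UDCA group as a whole is put at the floor of 3 reads. Of its 4329 distinct stretches of 50 bases, 606 are also in KIF4A transcripts, so its few reads cannot be assigned with certainty. The other 39 kinesin genes shared no such stretch with another member of the family.

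**Figure D2:**
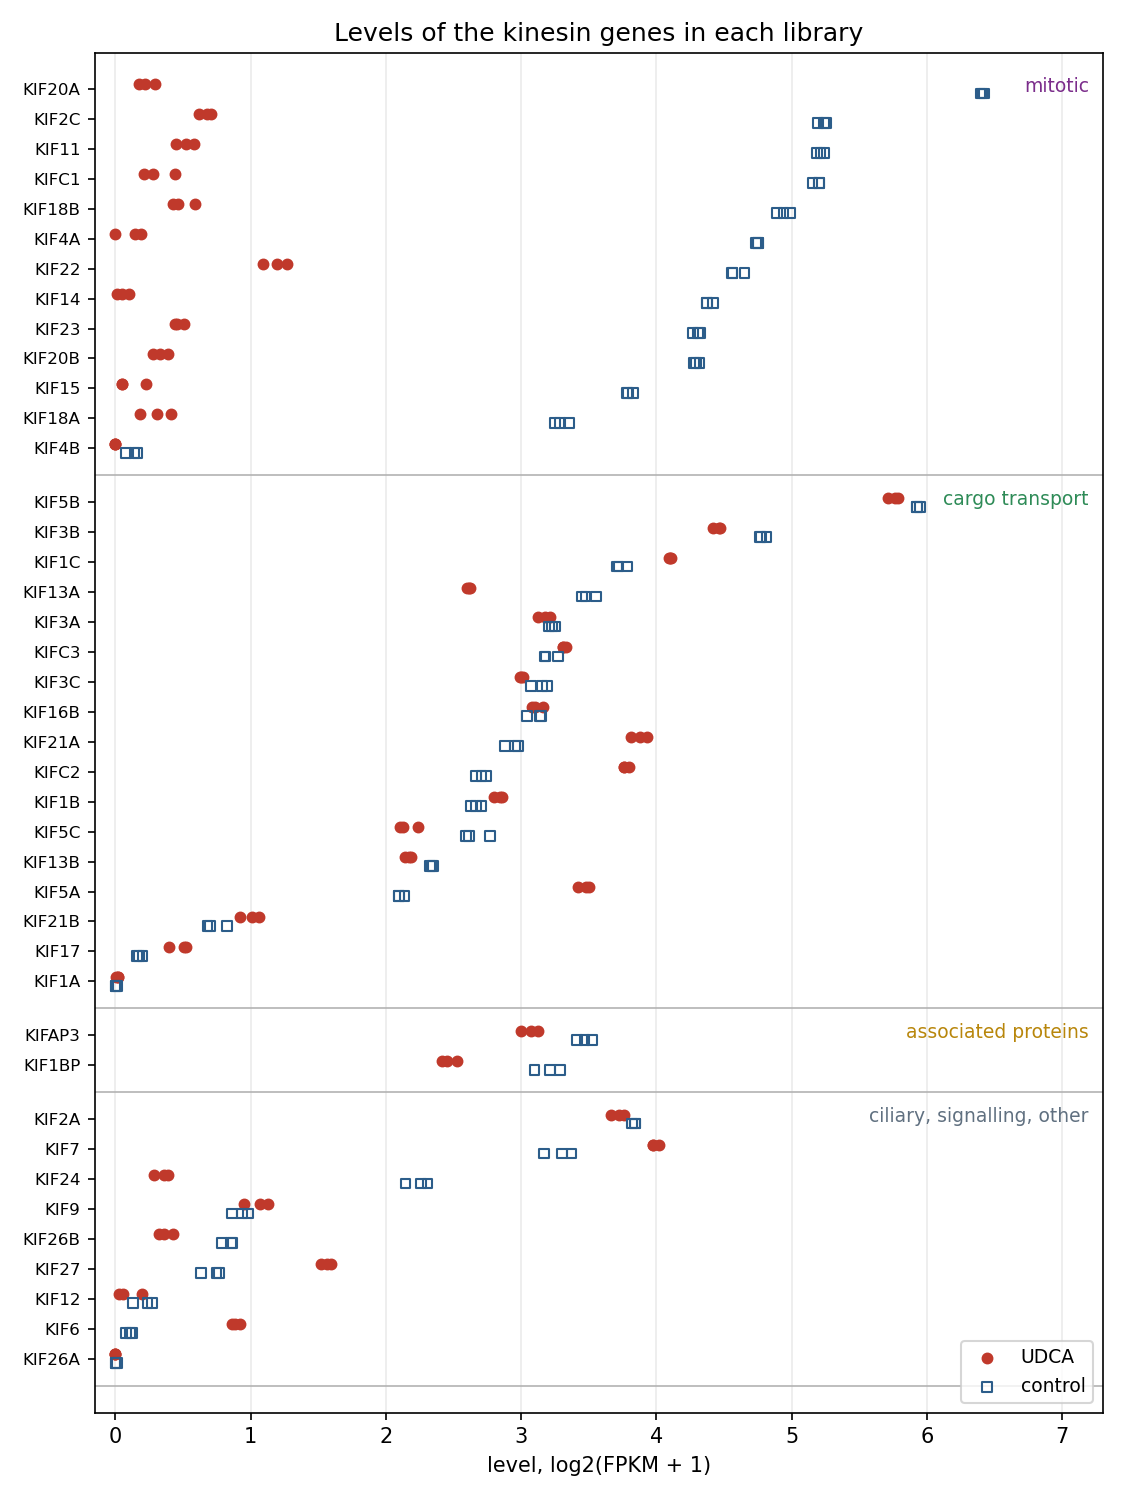
Level of each of the 41 kinesin genes in each library, log2(FPKM + 1), with UDCA libraries as filled circles and control libraries as open squares, sorted within each role by the control mean. The UDCA points of the mitotic motors sit at the left edge, with KIF22 the furthest right among them, while the cargo-transport motors keep to the same range in both groups.

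The stretches upstream of these genes were searched for short motifs known from mitotic promoters, and 6 are shown so that genes with falls of different depth can be compared base by base. The window is the 250 bases before the RefSeq start of each gene (GRCh38.p14). An entry was found for 34 of the 41 genes; KIF5A, KIF13B, KIF21B, KIFC2, KIFC3, KIF26B and KIF27 had none. In 15 of the 34 windows more than 30 bases lie in a GENCODE 29 exon, KIF20A, KIFC1 and KIF18A among them. The exon can be of another gene or on the other strand, and none of these windows is printed. The motifs were the CCAAT box (CCAAT, or ATTGG on the other strand), a core of the cell-cycle homology region (TTTGAA, or TTCAAA), and an E2F-like word (GCGGGAA, or TTCCCGC); no pair of them overlaps in the sequences printed. Capitals mark the matches, 5′ to 3′ in the direction of the gene. KIF11, with a CCAAT box and TTTGAA, KIF14, with the largest ratio of means on few reads, KIF20B, with 2 CCAAT boxes, and KIF2C, with no match, stand for the mitotic motors, and KIF5B and KIF13A for the cargo-transport motors.
KIF11: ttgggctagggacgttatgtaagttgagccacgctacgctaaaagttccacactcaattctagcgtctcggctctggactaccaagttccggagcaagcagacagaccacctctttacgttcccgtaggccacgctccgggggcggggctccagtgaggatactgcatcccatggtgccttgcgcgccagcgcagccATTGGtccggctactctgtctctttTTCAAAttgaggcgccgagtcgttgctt
KIF14: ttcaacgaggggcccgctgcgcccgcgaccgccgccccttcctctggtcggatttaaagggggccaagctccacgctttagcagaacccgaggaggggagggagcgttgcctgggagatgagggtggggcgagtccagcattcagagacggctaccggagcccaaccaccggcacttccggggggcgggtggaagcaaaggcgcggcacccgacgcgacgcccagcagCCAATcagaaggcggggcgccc
KIF20B: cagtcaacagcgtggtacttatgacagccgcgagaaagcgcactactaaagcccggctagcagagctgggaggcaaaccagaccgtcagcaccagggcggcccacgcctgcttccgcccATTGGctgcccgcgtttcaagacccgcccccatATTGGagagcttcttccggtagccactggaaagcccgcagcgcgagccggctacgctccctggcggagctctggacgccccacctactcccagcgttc
KIF2C: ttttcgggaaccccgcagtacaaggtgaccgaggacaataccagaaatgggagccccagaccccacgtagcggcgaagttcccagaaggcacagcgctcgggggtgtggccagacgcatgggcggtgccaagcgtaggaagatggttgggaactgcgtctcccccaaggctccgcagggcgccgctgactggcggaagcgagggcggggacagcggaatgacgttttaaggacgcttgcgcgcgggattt
KIF5B: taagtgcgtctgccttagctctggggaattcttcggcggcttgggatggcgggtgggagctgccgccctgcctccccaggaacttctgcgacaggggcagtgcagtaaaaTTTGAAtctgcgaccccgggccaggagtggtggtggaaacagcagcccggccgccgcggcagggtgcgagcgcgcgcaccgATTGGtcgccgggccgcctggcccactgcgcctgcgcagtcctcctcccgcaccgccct
KIF13A: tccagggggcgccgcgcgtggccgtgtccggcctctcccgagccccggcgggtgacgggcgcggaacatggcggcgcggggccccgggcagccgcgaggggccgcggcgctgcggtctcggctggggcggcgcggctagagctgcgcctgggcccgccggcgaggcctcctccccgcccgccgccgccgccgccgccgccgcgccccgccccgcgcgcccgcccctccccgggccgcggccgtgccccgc
These windows are chr10:92592880-92593129 on the plus strand for KIF11, chr1:200620752-200621001 on the minus strand for KIF14, chr10:89701340-89701589 on the plus strand for KIF20B, chr1:44739587-44739836 on the plus strand for KIF2C, chr10:32056426-32056675 on the minus strand for KIF5B and chr6:17987636-17987885 on the minus strand for KIF13A.

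A CCAAT box was found in 10 of the 12 tested mitotic motors, in 3 of 10 tested cargo-transport motors with an entry, and in 35.5% of 9462 promoters of genes tested (33.0% of 27305 promoters in all). TTTGAA was found in 5 of the 12, in 1 of the 10 and in 8.34% of promoters of genes tested (13.6% of all). Both together were in 4 of the 12, in 1 of the 10 and in 3.48% of promoters of genes tested (4.85% of all). The E2F-like word was in none of the 12, in 1 of the 10 and in 9.08% of promoters of genes tested (5.59% of all). KIF5B, which carries a CCAAT box and TTTGAA, fell only 1.14-fold, and KIF2C, with none of the 3 motifs, fell 62.4-fold. These counts include windows with more than 30 bases in an exon. Among the mitotic motors these are KIF20A, KIFC1, KIF4A, KIF18B, KIF23, KIF15, KIF22 and KIF18A, and among the cargo-transport motors KIF3C, KIF3A and KIF21A. The tested mitotic windows left are KIF11, KIF14 and KIF20B, each with a CCAAT box, and KIF2C, with no match. Of those only KIF11 held TTTGAA. The promoters of all genes were not sorted by exon bases. A match is a description of the letters, not of binding, and the windows depend on which start site RefSeq gives.

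Among the cargo-transport motors the levels stayed within about the same range, and the clearest pattern was in kinesin-1. KIF5B (chromosome 10, 32009010 to 32056431), the widely expressed heavy chain, had 54.1, 53.3 and 51.3 FPKM in the UDCA libraries, against 59.9, 59.8 and 60.8 FPKM in the control libraries, and with UDCA it was the most abundant kinesin (log2 change -0.18 ± 0.0251 SE, adjusted p = 0.000408). KIF5A (chromosome 12, 57549998 to 57586632), a heavy chain known best from neurons, had 10.3, 10.2 and 9.70 FPKM in the UDCA libraries, against 3.28, 3.40 and 3.28 FPKM in the control libraries. That is a rise of 3.03-fold (log2 change 1.36 ± 0.0404 SE, adjusted p = 1.36e-07), the largest on the log2 scale among the tested kinesins. Of 3 tested neuron markers, MAP2 was at 5.01 ± 0.104 FPKM with UDCA and 13.6 ± 0.166 FPKM in control, SNAP25 at 4.28 ± 0.605 FPKM with UDCA and 6.19 ± 0.441 FPKM in control and SYT1 at 14.6 ± 0.809 FPKM with UDCA and 4.93 ± 0.195 FPKM in control, and their part in the KIF5A rise was not tested. KIF5C, the third heavy chain and also neuron-enriched, had 3.72, 3.30 and 3.36 FPKM in the UDCA libraries, against 5.12, 5.02 and 5.82 FPKM in the control libraries, a fall of 1.54-fold (log2 change -0.50 ± 0.0671 SE, adjusted p = 0.000335). The sum of the 3 was 68.2, 66.8 and 64.4 FPKM in the UDCA libraries, against 68.3, 68.2 and 69.9 FPKM in the control libraries. The highest UDCA sum, 68.18 FPKM, lay just below the lowest control sum, 68.21 FPKM. Within that sum KIF5A made up 15.1, 15.2 and 15.1% in the UDCA libraries, against 4.80, 4.98 and 4.69% in the control libraries.

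KIF21A and KIFC2 had the next largest rises of this class. KIF21A, a motor that carries cargo in axons and slows microtubule growth at the cell edge, had 13.7, 14.2 and 13.03 FPKM in the UDCA libraries, against 6.88, 6.38 and 6.75 FPKM in the control libraries, a rise of 2.05-fold (log2 change 0.94 ± 0.0446 SE, adjusted p = 1.39e-06). KIFC2, a minus-end directed member of kinesin-14 described in neurons of mice, had 12.9, 12.6 and 12.6 FPKM in the UDCA libraries, against 5.53, 5.36 and 5.69 FPKM in the control libraries, a rise of 2.29-fold (log2 change 1.07 ± 0.0348 SE, adjusted p = 2.08e-07). Of its exon bases 17.8% lie opposite FOXH1, a gene at 0.184 FPKM with UDCA and 0.0997 FPKM in control. The other 3 rises were small. KIF1C, a carrier of dense-core vesicles and integrins, had 16.3, 16.1 and 16.1 FPKM in the UDCA libraries, against 12.1, 12.2 and 12.8 FPKM in the control libraries, a rise of 1.31-fold. KIF1B, which carries mitochondria and synaptic vesicle precursors, had 6.24, 6.19 and 5.98 FPKM in the UDCA libraries, against 5.20, 5.34 and 5.53 FPKM in the control libraries, a rise of 1.15-fold. KIFC3, a minus-end motor of Golgi and cell junctions, had 9.06, 8.90 and 8.92 FPKM in the UDCA libraries, against 8.07, 8.02 and 8.65 FPKM in the control libraries, a rise of 1.09-fold (adjusted p = 0.0348). The calls of KIF1B and KIFC3 rest on the scaling: with the libraries scaled by the median ratio of genes the adjusted p was 0.142 for KIF1B and 0.859 for KIFC3, and the class then held 4 higher and 7 lower. The KIFC3 call was also lost with quantile normalization (adjusted p = 0.570) and with any library left out but control replicate 3, at adjusted p = 0.0904, 0.0680 and 0.0642 without UDCA replicates 1, 2 and 3 and 0.103 and 0.107 without control replicates 1 and 2.

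KIF13A, which moves endosomes and the mannose-6-phosphate receptor, had the largest fall of a cargo-transport motor. It had 5.13, 5.15 and 5.05 FPKM in the UDCA libraries, against 9.93, 10.7 and 10.1 FPKM in the control libraries, a fall of 2.01-fold (log2 change -0.88 ± 0.0396 SE, adjusted p = 1.03e-06). The heterotrimeric kinesin-2, which serves ciliary transport and moves cargo in the cytoplasm, fell in part. Its motor KIF3B had 20.4, 21.1 and 21.2 FPKM in the UDCA libraries, against 26.3, 26.2 and 27.1 FPKM in the control libraries, a fall of 1.27-fold (log2 change -0.33 ± 0.0272 SE, adjusted p = 2.4e-05). The partner subunit KIF3A did not pass the test, with 8.28, 8.06 and 7.75 FPKM in the UDCA libraries, against 8.53, 8.37 and 8.22 FPKM in the control libraries, ranges that overlap (adjusted p = 0.214). With median-ratio scaling KIF3A was called lower, with an adjusted p of 0.00585. KIFAP3, the adaptor that binds the motor pair to cargo, had 7.40, 7.74 and 7.01 FPKM in the UDCA libraries, against 9.63, 10.5 and 10.1 FPKM in the control libraries, a fall of 1.36-fold (log2 change -0.40 ± 0.0483 SE, adjusted p = 0.000192). KIF3C, an alternative partner of KIF3A, had 7.004, 6.95 and 7.08 FPKM in the UDCA libraries, against 8.14, 7.41 and 7.90 FPKM in the control libraries, a fall of 1.11-fold (adjusted p = 0.0191), a call lost without UDCA replicate 2 (adjusted p = 0.0539), control replicate 1 (0.0657) or control replicate 3 (0.0576). KIF13B, a carrier related to KIF13A, had 3.51, 3.55 and 3.40 FPKM in the UDCA libraries, against 4.01, 4.08 and 4.09 FPKM in the control libraries, a fall of 1.16-fold (adjusted p = 0.00776). In KIF3C and KIF13B the UDCA libraries lay below the control libraries without overlap, and 82.8% of all genes tested had groups without overlap. KIF16B, an early endosome motor, had 7.95, 7.61 and 7.46 FPKM in the UDCA libraries, against 7.81, 7.24 and 7.85 FPKM in the control libraries, ranges that overlap, and did not pass (adjusted p = 0.892). The called shifts of KIF3C and KIF13B were smaller than that of KIF1BP. This protein, which binds KIF1 and other motors and holds some of them off microtubules, had 4.47, 4.35 and 4.75 FPKM in the UDCA libraries, against 8.26, 7.57 and 8.76 FPKM in the control libraries, a fall of 1.81-fold (log2 change -0.73 ± 0.0593 SE, adjusted p = 2.24e-05).

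KIF1A, KIF17 and KIF21B did not reach the minimum level and were not tested. KIF21B, a paralogue of KIF21A, had 0.896, 1.09 and 1.01 FPKM in the UDCA libraries, against 0.603, 0.622 and 0.775 FPKM in the control libraries, and thus at least 1 FPKM in 2 libraries. KIF17, a homodimeric kinesin-2, had 0.434, 0.315 and 0.422 FPKM in the UDCA libraries, against 0.148, 0.117 and 0.126 FPKM in the control libraries. KIF1A, an axonal motor, was nearly absent, with 7 reads in all UDCA libraries and 4 in all control libraries. The UDCA values lay above the control values for KIF21B and KIF17. Groups did not overlap for 82.8% of all genes tested, a share that leaves these low genes out.

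The 9 ciliary, signalling and other kinesins went different ways. KIF24, a kinesin-13 that works at centrioles and holds back cilium assembly, had 0.286, 0.220 and 0.307 FPKM in the UDCA libraries, against 3.42, 3.95 and 3.80 FPKM in the control libraries, a fall of 13.7-fold (log2 change -1.89 ± 0.0731 SE, adjusted p = 4.79e-07). It was the one tested KIF gene outside the mitotic set that fell by at least 1 on the log2 scale. Its upstream window held 3 CCAAT boxes, a motif in 35.5% of promoters of genes tested, and KIF1B, which was called higher, held 2. KIF2A, the kinesin-13 that acts both at spindle poles and in non-dividing cells, had 12.5, 12.2 and 11.7 FPKM in the UDCA libraries, against 13.4, 13.3 and 13.1 FPKM in the control libraries, only 1.09-fold lower (log2 change -0.12 ± 0.0334 SE, adjusted p = 0.0135). KIF7 and KIF27 went the other way. KIF7, a ciliary regulator of Hedgehog signalling, had 14.7, 15.2 and 14.7 FPKM in the UDCA libraries, against 8.86, 9.36 and 8.002 FPKM in the control libraries, a rise of 1.70-fold (log2 change 0.71 ± 0.0541 SE, adjusted p = 1.67e-05). Of the KIF7 exon bases 11.8% lie opposite TICRR, a replication gene, which moved the other way, at 1.27 ± 0.133 FPKM with UDCA and 7.06 ± 0.334 FPKM in control. KIF27, the closest relative of KIF7, had 1.87, 1.95 and 2.02 FPKM in the UDCA libraries, against 0.678, 0.701 and 0.548 FPKM in the control libraries, a rise of 3.03-fold (log2 change 0.84 ± 0.0715 SE, adjusted p = 2.85e-05). The 3 control libraries were under 1 FPKM for KIF27, so it was tested through the UDCA libraries alone, as KIF24 was through the control libraries alone. Both genes had to differ, so their adjusted p-values support nothing more.

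Of the other 5, none was tested. KIF6, a ciliary motor, had 0.896, 0.845 and 0.819 FPKM in the UDCA libraries, against 0.0760, 0.0539 and 0.0902 FPKM in the control libraries, so that the UDCA libraries held 506 reads in all and the control libraries 45, a ratio of 11.6-fold. KIF26B, a non-motile kinesin of cell adhesion and polarity, had 0.248, 0.281 and 0.339 FPKM in the UDCA libraries, against 0.822, 0.726 and 0.810 FPKM in the control libraries. Both pairs of groups lie apart, KIF6 with the UDCA libraries above and KIF26B with them below. The groups lay apart for 82.8% of all genes tested, which do not include these low genes. KIF9, a motor of motile cilia, had 1.10, 0.933 and 1.19 FPKM in the UDCA libraries, against 0.914, 0.974 and 0.819 FPKM in the control libraries, ranges that overlap. Of its exon bases 17.9% lie opposite KIF9-AS1 or KLHL18. KIF12 came to 10 reads in all UDCA libraries and 25 in all control libraries, also with overlapping values. KIF26A had no read with UDCA and 1 in control, too few to compare.

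Members inside and outside the list of mitotic motors sit side by side in several subfamilies. Genes close in descent could thus be set against each other in the same library. KIF2A, outside the list, also acts at spindle poles. In kinesin-13 the log2(FPKM + 1) level of KIF2C minus that of KIF2A was -3.14, -3.05 and -2.96 in the UDCA libraries, against 1.41, 1.35 and 1.42 in the control libraries. In kinesin-3 the level of KIF14 minus that of KIF1C was -4.10, -3.997 and -4.05 in the UDCA libraries, against 0.66, 0.70 and 0.59 in the control libraries. Both mitotic genes thus stood above their relative in control libraries and below it in UDCA libraries. The same held in kinesin-4, where KIF4A minus KIF21A was -3.88, -3.74 and -3.67 with UDCA, against 1.78, 1.87 and 1.78 in control. In kinesin-14, KIFC1 minus KIFC3 was -2.89, -3.03 and -3.10 with UDCA, against 2.02, 1.98 and 1.93 in control. Kinesin-1 has no mitotic member among these genes, and there the order did not turn: KIF5A minus KIF5B was -2.28, -2.28 and -2.29 with UDCA, against -3.83, -3.79 and -3.85 in control. For each of the 5 pairs the groups did not overlap, and the 2-sided exact permutation test gave p = 0.1, also 0.1 after adjustment over the 5 pairs, the smallest value that 3 libraries against 3 allow and so above 0.05 whatever the size of the difference. KIF2C, KIF14, KIF4A and KIFC1 reached 1 FPKM in the control libraries alone and so had to differ between the groups. The pairs were also chosen with the levels known, so their separation and the test support nothing more.

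**Figure D3:**
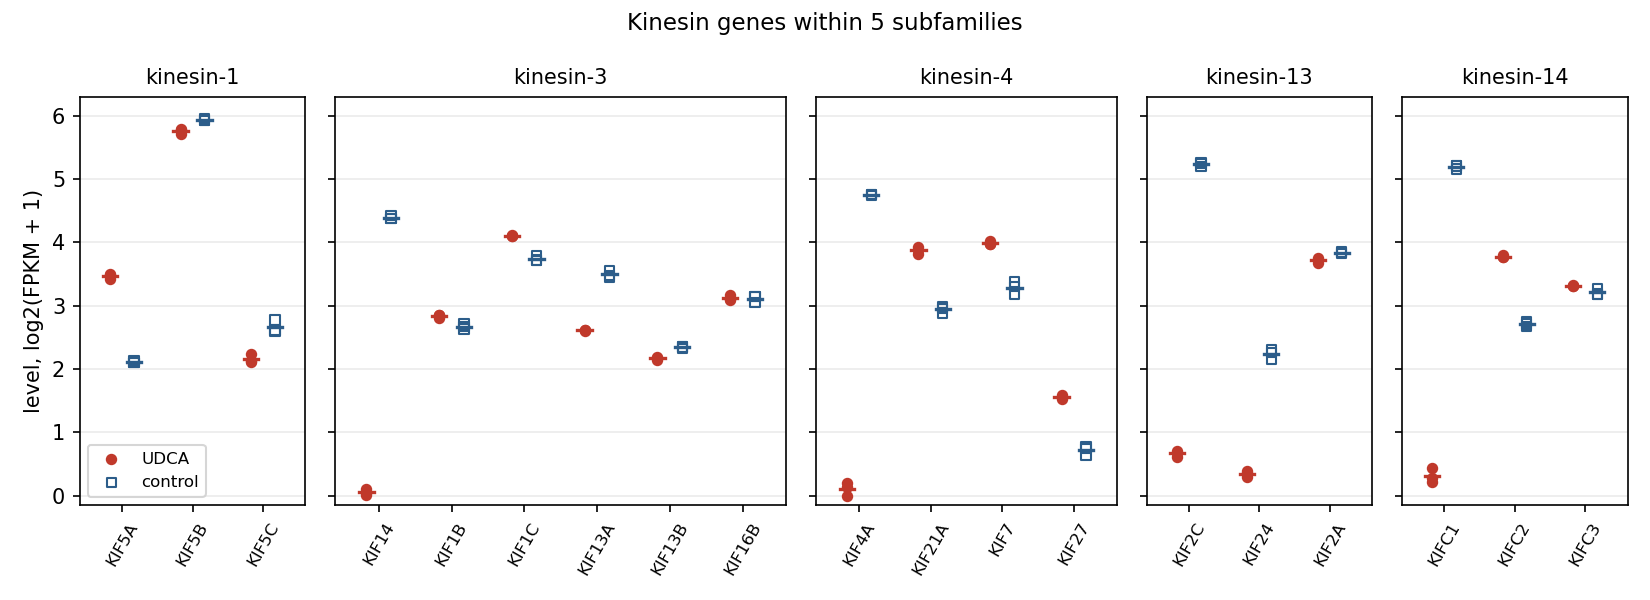
Levels of kinesin genes within 5 subfamilies, log2(FPKM + 1), with UDCA libraries as filled circles left of control libraries as open squares, and a bar at each mean. KIF14, KIF4A, KIF2C and KIFC1 lie below 1 with UDCA, as does KIF24, while KIF1C, KIF21A, KIF2A and KIFC3 lie close to or above their control points.

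The make-up of the 41 KIF genes, CENPE not included, turned over. The summed level of the 41 genes was 228, 227 and 221 FPKM in the UDCA libraries, against 569, 565 and 573 FPKM in the control libraries. Mitotic motors contributed 3.92, 4.44 and 4.205 FPKM with UDCA, against 352, 348 and 351 FPKM in control. Their share was 1.72, 1.96 and 1.90% with UDCA, against 61.7, 61.5 and 61.3% in control, and the groups stand far apart. With KIF2A counted among the mitotic motors the mean share was 7.25% with UDCA and 63.9% in control. The cargo-transport motors summed to 180.0, 179 and 174 FPKM with UDCA, against 172, 170.2 and 176 FPKM in control, ranges that overlap. The difference between the family sums was of about the size of the mitotic sum in control. By rank, 8 of the 10 most abundant kinesins in control were mitotic motors, the others being KIF5B and KIF3B, and none of the 10 highest with UDCA was. The UDCA order began with KIF5B and KIF3B, followed by KIF1C, KIF7, KIF21A, KIFC2, KIF2A, KIF5A, KIFC3 and KIF3A. KIF2A and KIFC2, neighbours in that order at 12.2 ± 0.426 and 12.7 ± 0.183 FPKM, lie about as far apart as their spread.

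**Figure D4:**
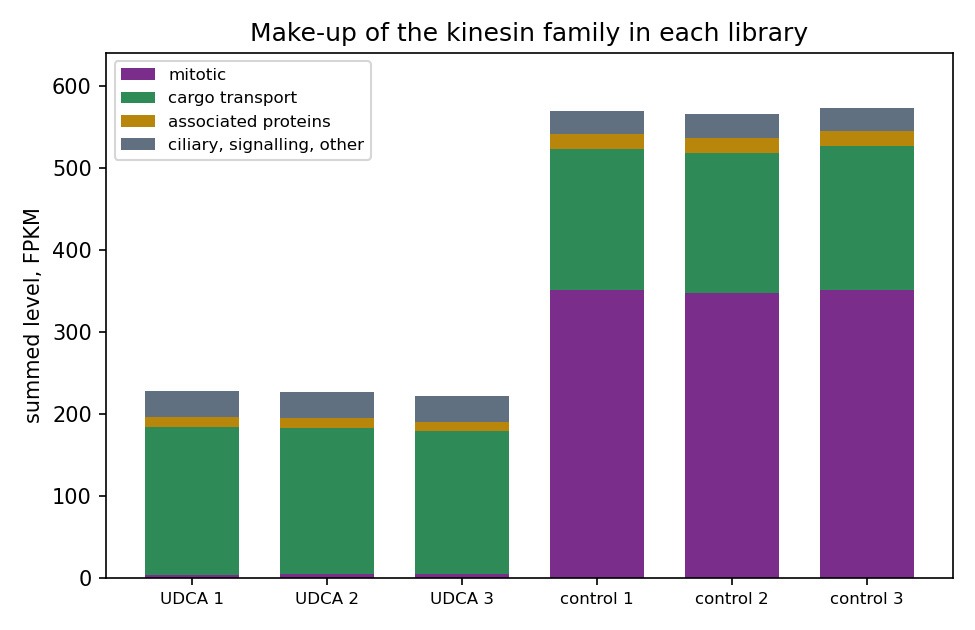
Summed FPKM of the kinesin genes in each library, stacked by role, UDCA libraries on the left. The mitotic part is 3.92 to 4.44 FPKM in the UDCA libraries and 348 to 352 FPKM in the control libraries, and the cargo-transport part is 174 to 179.99 FPKM with UDCA and 170.2 to 176 FPKM in control.

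Proteins that work with the motors were read alongside them. Of 17 tested partners of the mitotic motors, 16 were lower and 1 higher with UDCA, with a median log2 change of -4.65, beside 35.7% lower and 45.1% higher among all genes tested. Of the 17, 9 passed the minimum level through the control libraries alone and had to differ, so the count and median are descriptions. NUSAP1 and PRC1 did not reach the minimum level. Of the NUSAP1 exon bases 62.2% lie in exons of AC087721.2, and of the PRC1 exon bases 58.4% in those of AC068831.7 or PRC1-AS1. Whether that lowered their listed levels was not tested. BIRC5, the passenger complex subunit survivin, was at 0.178 ± 0.0335 FPKM with UDCA and 93.4 ± 2.02 FPKM in control. TPX2, which binds KIF11 and KIF15 to spindle microtubules, had 2.48, 2.05 and 2.53 FPKM in the UDCA libraries, against 142, 142 and 147 FPKM in the control libraries, a fall of 61.0-fold. DLGAP5, a spindle protein linked to KIF18A and KIF11, fell 494-fold, on only 12 reads in all UDCA libraries. Its ratio was 399-fold without UDCA replicate 1 and 652-fold without UDCA replicate 3. ANLN, the cytokinesis scaffold anillin, fell 222-fold. The member that rose was MAPRE3, the microtubule end-binding protein EB3, 2.19-fold to 22.5 ± 0.302 FPKM, against 10.3 ± 0.822 FPKM in control; MAPRE3 was named after its values were seen.

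The light chains and cargo adaptors of kinesins were mostly higher: 13 of 19 tested rose, 4 fell, and the median of their log2 changes was 0.28, beside 45.1% higher and 35.7% lower among all genes tested. With median-ratio scaling the split was 11 higher and 6 lower, beside 5826 higher and 5788 lower of all genes tested. The 3 named here, among those with the largest changes, were higher. PLEKHM2, or SKIP, which links lysosomes to kinesin-1, had 31.5, 31.8 and 33.1 FPKM in the UDCA libraries, against 14.04, 15.5 and 15.2 FPKM in the control libraries, a rise of 2.15-fold. KLC2, a light chain of kinesin-1, rose 2.44-fold, with 23.0 ± 0.472 FPKM with UDCA and 9.43 ± 0.447 FPKM in control, and SPAG9, the scaffold JIP4, rose 2.52-fold, with 39.8 ± 0.893 FPKM with UDCA and 15.8 ± 0.124 FPKM in control. In each of these 3 the lowest UDCA library lay above the highest control library. Groups did not overlap for 82.8% of all genes tested, so this does not set them apart.

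Cytoplasmic dynein, the motor that travels the other way, and its cofactors were more often lower than higher. Of 30 tested, 18 were lower, 8 higher and 4 not called, with a median log2 change of -0.20. Among all genes tested 35.7% were lower and 45.1% higher. With median-ratio scaling the numbers were 21 lower and 6 higher, beside 5788 lower and 5826 higher of all genes tested. Of the 30, only 14 were lower and 8 higher without control replicate 1, and likewise without control replicate 3. Of all genes tested 4927 were lower and 6291 higher without control replicate 1, and 4976 lower and 6289 higher without control replicate 3. SPDL1, which brings dynein to kinetochores in mitosis, had 1.58, 1.56 and 1.62 FPKM in the UDCA libraries, against 16.7, 15.8 and 16.0 FPKM in the control libraries, a fall of 10.2-fold (log2 change -2.73 ± 0.0395 SE, adjusted p = 5.53e-09). The paralogous dynein regulators NDE1 and NDEL1 went opposite ways. NDE1 had 3.94, 3.88 and 4.21 FPKM in the UDCA libraries, against 10.98, 11.3 and 10.7 FPKM in the control libraries, a fall of 2.74-fold. NDEL1 had 14.1, 14.3 and 13.8 FPKM in the UDCA libraries, against 5.94, 5.76 and 6.12 FPKM in the control libraries, a rise of 2.37-fold. DYNLT3, a light chain, fell 2.34-fold, with 7.55 ± 0.982 FPKM with UDCA and 17.7 ± 1.26 FPKM in control. DYNC1H1, the heavy chain that carries the motor itself, was named after its values were seen and did not pass at 14.8 ± 0.347 FPKM with UDCA and 15.5 ± 0.257 FPKM in control (adjusted p = 0.0818).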

How the data were processed

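PolyA RNA of LN229 cells was made into TruSeq libraries, per the labels' protocols; whether counting used strand is not given in the sources used here. GRCh38, HISAT2 and Bowtie2 2.0.6 are named, with no role, per the submitters' processing notes. The authors deposited 1 table of gene levels with no stated unit; its values were read as FPKM, because each deposited value times the GENCODE 29 exon length was a whole multiple of 1 step per library (100% of values, tolerance 0.01). These steps gave whole reads per gene, used for depth and as an alternative. Counting error applies on top: 3 reads in 1 kb of exon equal 0.169 to 0.188 FPKM.

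Log2(FPKM + 1) values of genes with at least 1 FPKM in 3 or more libraries were compared between UDCA and control with limma 3.58.1 in R 4.3.3 (lmFit, eBayes with trend, 2-sided), and p-values were adjusted by Benjamini-Hochberg over 14380 genes with a threshold of 0.05. Tables were handled with Python 3.11.15. The fit was also run on simulated data in which few genes were changed, by 4-fold at most. With the spread of these libraries it recovered 56 of 62 genes changed 2-fold and 52 of 62 changed 1.5-fold. It called 10 of 13682 genes falsely. With the dispersion set to 0.01 it found 53 of 61 genes changed 2-fold but 24 of 63 changed 1.5-fold, and 13 of 13669 genes were called falsely. In the real libraries 80.8% of genes tested were called, far more than were changed in the simulation. The simulated rates of false calls and of recovery therefore cannot be carried over to these libraries.

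The kinesin classes and the lists of partners, adaptors and dynein subunits were chosen from textbook roles with earlier results of these data known. Every listed kinesin gene is named; from the other lists, up to 4 called genes with the largest log2 change and at least 2 FPKM in the higher group are. A gene that this rule names is not reported here. Alternatives were quantile normalization, median-ratio scaling, no filter, a pseudocount of 0.1, a replicate block, voom on the recovered reads and leaving out each library. Promoter windows came from RefSeq.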

Additional observations from a re-analysis of the deposited data

How the results depend on the processing

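Of the 12 mitotic motors 11 were tested through the control libraries alone, so their calls under other settings add no support. Of the 32 tested kinesin genes, 27 kept their direction and their call in all 12 settings, the 12 mitotic motors among them. The others were KIFC3, KIF1B and KIF3C, which lost their call in settings given with their values and, for KIFC3, also with the replicate block, KIF3A, which gained one with quantile normalization (adjusted p = 0.0111) and median-ratio scaling, and KIF16B. KIF16B, not called, changed sign with quantile normalization (-0.064), with median-ratio scaling (-0.091), without UDCA replicate 1 (-0.016) and without control replicate 2 (-0.026), and lay between -0.026 and 0.025 with any 1 library left out. The median of the mitotic motors was -4.45 with median-ratio scaling, -4.34 with no filter and with KIF2A counted among them, -5.99 with a pseudocount of 0.1, -6.28 with voom on recovered reads and between -4.43 and -4.37 with 1 library left out. The cargo-transport median was -0.095 with quantile normalization, -0.12 with median-ratio scaling and 0.0069 with no filter. The mitotic share of the family was 7.25% with UDCA and 63.9% in control with KIF2A counted in, and 1.24% with UDCA and 51.3% in control in recovered reads, an alternative chosen after seeing the data.

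Without the filter on low values KIF6 (0.79, adjusted p = 1.05e-04) and KIF17 (0.30, adjusted p = 0.00565) were called higher, and KIF26B (-0.47, adjusted p = 0.00262) and KIF4B (-0.13, adjusted p = 0.0147) lower. In that setting 7743 of 33890 genes were called higher and 6708 lower, so such a call does not set these genes apart. With the replicate number as a block 11503 genes were called in place of 11624, and KIFC3 was lost (adjusted p = 0.0634). Same-numbered libraries did not deviate together (correlations 0.014, -0.0012 and 0.0073). These deviations may be mostly counting error, so the correlations cannot show whether such libraries share more than a number. Levels of the mitotic motors with UDCA rest on few reads, 14 for KIF14 in all, which limits their fold changes, and groups of 3 are too small to test for a library that stands apart.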

Other observations

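Non-coding genes named after kinesins were read at low levels. KIF28P, a pseudogene, was at 0.125 ± 0.0146 FPKM with UDCA and 0.359 ± 0.0885 FPKM in control (SD, n = 3 each), on 22 reads in all UDCA libraries and 65 in all control libraries. KIF9-AS1, an antisense RNA of KIF9, had 107 reads with UDCA and 80 in control. KIF26B-AS1 had 4 reads with UDCA and 5 in control, KIF25-AS1 had 4 with UDCA and 0 in control, and KIF18BP1, a pseudogene, had 1 with UDCA and 0 in control, too few to compare.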
